A study of Mus musculus with 3 samples.

Results

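TRBV19 is the mouse gene segment that encodes Vβ6, one of the variable regions from which a T cell receptor (TCR) β chain is built. It was examined in single-cell TCR sequencing (scTCR-Seq) of CD45+ cells sorted from the sciatic nerves of neuropathic NOD.AireGW/+ mice, a NOD strain with 1 mutant copy of Aire that develops spontaneous autoimmune neuropathy. The gene was chosen by its cell counts, because the largest clone of the data uses it, so cell counts are given as a description with no test. Of the 3 libraries, those of replicates 1 and 2 came from 1 animal apiece, and the cells of replicate 3 were pooled from 2 mice whose clones cannot be told apart. The labels give no age or sex, all libraries belong to 1 condition and no control genotype was sequenced, so the comparisons are between TRBV19 and the other TRBV genes within each library. Members were all productive β chains (TRB) of cell barcodes whose V gene was TRBV19. They were carried by 899 of 6256 cells with a TRB and made up 323 of 3872 rearrangements, where a rearrangement is a distinct combination of V gene, J gene and CDR3 bases, counted once in a library. CDR3 is the loop encoded at the junction of the joined segments.

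A developing T cell joins 1 Vβ segment to a D and a J segment, trims the ends and adds untemplated bases, so the V gene fixes the first residues of the CDR3 and the junction makes its centre unlike that of other clones. The CDR1 and CDR2 loops come from the V gene alone and largely touch the MHC molecule, whereas CDR3 lies over the peptide. Vβ6 is known in mice for the loss of Vβ6+ cells in strains that carry certain endogenous retroviral superantigens, and TRBV19 is also one of the β genes that mouse mucosal-associated invariant T (MAIT) cells use. The cells here are not divided into CD4+ and CD8+ cells, since barcodes were not joined to gene expression.

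TRBV19 lies on chromosome 6 of GRCm38 (mm10) at chr6:41178375-41179048 on the plus strand, in 2 exons of which the second, chr6:41178746-41179048, holds the V region. In replicates 2 and 3, whose tables give the framework and CDR1 and CDR2 bases, all 388 TRBV19 contigs had the same sequence over these 5 stretches, and it was that of GRCm38. The 3′ end of the exon is shown from its conserved cysteine codon, since every TRBV19 CDR3 begins with it. Capitals mark the heptamer of the recombination signal that follows the exon, at chr6:41179033-41179055.

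TRBV19 3′ end: tgtgccagcagtatagCACAGTG

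Read as codons, the germline bases before the heptamer give CASSI. TRBV19 CDR3s began with CASS in 283 of 323 rearrangements and with CASSI in 150 of 323, or 46.4%, against 5 of 3549 rearrangements (0.141%) of the other TRBV genes. This start is a property of the gene, and the results below concern what lies behind it. All 16 of the germline V bases were kept in 5 of 103 rearrangements of replicate 1, 20 of 172 of replicate 2 and 4 of 48 of replicate 3.

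Counted by cells, TRBV19 ranked 1 among 22 TRBV genes in replicate 1, 3 in replicate 2 and 2 in replicate 3. The 22 include the deposited joint name TRBV12-2+TRBV13-2, which is counted here and below as a gene beside TRBV12-2 and TRBV13-2. TRBV19 was carried by 512 of 2253 cells with a TRB in replicate 1, which was 22.7% (exact Clopper-Pearson 95% interval 21.0% to 24.5%). Replicate 2 had 321 of 3361 cells, or 9.55% (8.58% to 10.6%), and replicate 3 had 66 of 642 cells, or 10.3% (8.04% to 12.9%). Replicate 1 had the highest share and the other libraries had similar ones. These intervals reflect counting error alone, with every cell taken as independent.

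Counted by rearrangements, the intervals of all 3 libraries overlapped. TRBV19 made up 103 of 1302 rearrangements in replicate 1 (7.91%, 6.50% to 9.51%), 172 of 2033 in replicate 2 (8.46%, 7.29% to 9.76%) and 48 of 537 in replicate 3 (8.94%, 6.66% to 11.7%). The mean over libraries was 8.44% ± 0.514 (SD, n = 3), against 14.2% ± 7.40 of cells. In the order of mean rearrangement shares it ranked 3 of 22, below TRBV5 with 9.57% ± 2.99 and above TRBV13-1 with 8.17% ± 1.11, and these neighbours differed from it by less than their own spread over libraries. Leaving out the largest TRBV19 rearrangement of every library brought the mean cell share to 8.36%. The other genes kept theirs, and leaving out its largest rearrangement can only lower the cell share of TRBV19.

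**Figure D1:**
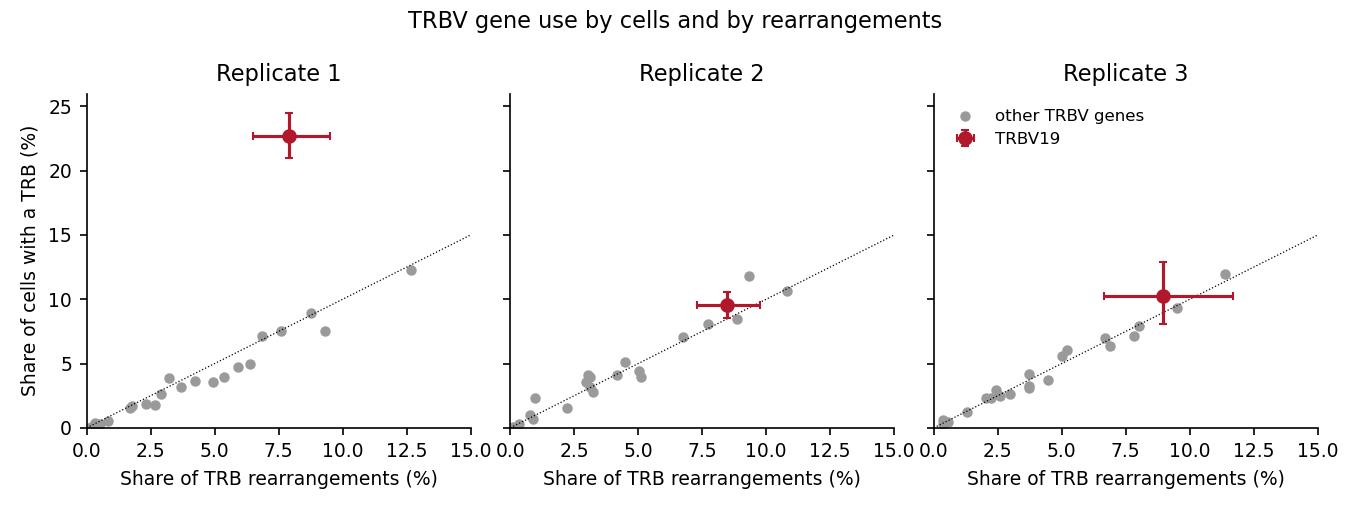
Share of cells with a TRB (y axis, percent) against share of TRB rearrangements (x axis, percent) for each TRBV gene in each library, with TRBV19 in red and its exact 95% intervals as bars. TRBV19 lay far above the dotted line of equal shares in replicate 1, at 22.7% of cells and 7.91% of rearrangements, and near it in replicates 2 and 3.

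Most TRBV19 cells of replicate 1 carried 1 rearrangement, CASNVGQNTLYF with TRBJ2-4. It was found in 365 cells, 16.2% of the cells with a TRB (14.7% to 17.8%), and so in 71.3% of the TRBV19 cells of that library. It had 4152 UMIs and a median of 9 per cell. Of its cells, 250 had an α chain (TRA) and 115 had none, and 249 of the 250 shared the same TRA of TRAV12D-2 and TRAJ16. Only 10 of the 16 germline V bases were left, so the CDR3 lacks the CASS start, no D match of at least 5 bases was found and 6 bases matched no germline segment. No other TRBV19 rearrangement of replicate 1 lay within 2 bases of it.

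The largest rearrangements of the other libraries were smaller. In replicate 2 it was a TRBJ2-1 rearrangement of 20 cells (0.595%, 0.364% to 0.918%), which ranked 9 among all TRBs of that library, and 18 of its cells shared a TRA of TRAV5-4 and TRAJ32. In replicate 3 it was a TRBJ1-4 rearrangement of 14 cells (2.18%, 1.20% to 3.63%), the largest TRB of that library, and its leading TRA of TRAV13-1 and TRAJ6 was seen in 11 cells. The β and α CDR3s of these 3 clones are shown because they held the most TRBV19 cells of each library. Here and below, capitals in a TRB mark bases that matched neither the V, the D nor the J germline of GRCm38. The α CDR3s are in lower case throughout.

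Replicate 1, 365 cells, TRB: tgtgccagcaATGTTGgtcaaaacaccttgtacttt
Replicate 1, 249 cells, TRA: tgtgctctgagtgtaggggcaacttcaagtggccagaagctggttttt
Replicate 2, 20 cells, TRB: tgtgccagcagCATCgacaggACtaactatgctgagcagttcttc
Replicate 2, 18 cells, TRA: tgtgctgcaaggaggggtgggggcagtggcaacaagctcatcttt
Replicate 3, 14 cells, TRB: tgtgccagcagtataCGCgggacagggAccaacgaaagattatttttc
Replicate 3, 11 cells, TRA: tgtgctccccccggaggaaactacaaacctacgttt

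Next in size were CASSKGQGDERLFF with 12 cells and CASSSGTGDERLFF with 7 cells in replicate 1, both with TRBJ1-4. In replicate 2 they were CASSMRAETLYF (TRBJ2-3, 13 cells) and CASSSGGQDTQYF (TRBJ2-5, 12 cells), and in replicate 3 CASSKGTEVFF (TRBJ1-1, 3 cells) and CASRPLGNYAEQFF (TRBJ2-1, 2 cells). Most TRBV19 rearrangements were seen in 1 cell: 84 of 103, 134 of 172 and 43 of 48 in replicates 1 to 3. Rearrangements of more than 1 cell made up 18.4% (11.5% to 27.3%), 22.1% (16.1% to 29.0%) and 10.4% (3.47% to 22.7%) of TRBV19, against 20.6%, 22.1% and 12.7% of the other TRBV genes together. The TRBV19 intervals hold the other genes' value in each library. Without the largest rearrangement, TRBV19 had 1.44, 1.77 and 1.11 cells per rearrangement, against 1.55, 1.75 and 1.20 in the other TRBV genes with all their rearrangements.

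**Figure D2:**
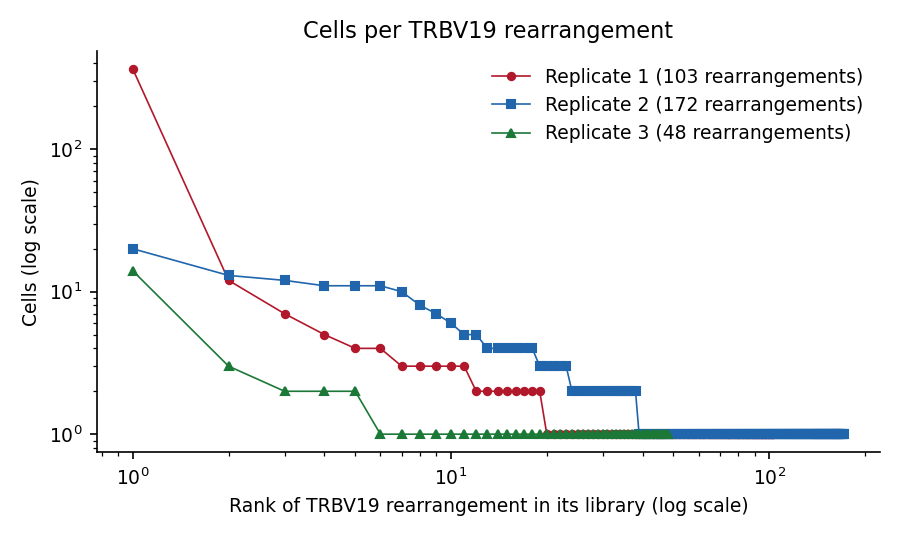
Cells per TRBV19 rearrangement (y axis, log scale) by rank within its library (x axis, log scale) for the 3 replicates. The first rearrangement of replicate 1, at 365 cells, stands apart from its next at 12 cells, whereas replicates 2 and 3 begin at 20 and 14 cells.

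TRBV19 TRBs had medians of 8, 5 and 4 UMIs per cell in replicates 1 to 3. Outside the largest rearrangement of each library the medians were 6, 5 and 4, against 7, 6 and 4 in the other TRBV genes. A TRA was missing in 9.52%, 19.2% and 34.6% of these TRBV19 TRBs, against 13.8%, 20.8% and 38.1% of the others. The largest clone of replicate 1 lacked it more often, in 31.5% of its cells. Libraries shared few cell barcodes, 7 between replicates 1 and 2, 0 between 1 and 3 and 3 between 2 and 3. A TRBV19 TRB on both sides was seen for 1 of these barcodes, and no TRBV19 nucleotide CDR3 was found in more than 1 library.

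Which TRBJ genes TRBV19 joined was tested on rearrangements, so that clone size did not enter. Each TRBV-TRBJ pair with an expected number of at least 5 was given an exact two-sided conditional test stratified by library, with Benjamini-Hochberg adjustment over the 193 pairs tested. Over all TRBV genes 3 pairs passed an adjusted p of 0.05, a background of 1.55%, and 0 of the 12 TRBV19 pairs did, although 3 of them had an unadjusted p under 0.05. With TRBJ1-2, the J segment of the ends in SDYTF, TRBV19 had 6 rearrangements where 16.5 were expected, from 2, 3 and 1 in replicates 1 to 3, and fell below expectation in all 3 libraries (log2 odds ratio -1.59 ± 0.60 SE, exact p = 0.00335, adjusted p = 0.089). With TRBJ2-7, the J segment of the ends in YEQYF, it had 82 where 64.5 were expected, from 27, 45 and 10 (log2 odds ratio 0.49 ± 0.19 SE, exact p adjusted 0.197). With TRBJ1-4, the J segment of the ends in ERLFF, it had 39 where 26.7 were expected, from 11, 22 and 6 (0.67 ± 0.26 SE, adjusted exact p = 0.202). Both lay above expectation in all 3 libraries and neither passed. For TRBJ2-7 the ratio of observed to expected, 1.27, was 1.08 without the larger recurrent group described below. In cells with exactly 1 TRB, TRBJ1-2 passed, with 4 where 14.5 were expected and an adjusted exact p of 0.0498. By total variation distance between pooled TRBJ shares (0 for equal use), the TRBV genes whose J use was most like that of TRBV19 were TRBV16 (0.120), TRBV1 (0.123) and TRBV13-3 (0.135), over 12 TRBJ genes.

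Alpha chains were tested in the same way on 2582 distinct pairs of rearrangements from cells with exactly 1 TRA and 1 TRB, 224 of them with TRBV19, with the TRAV genes grouped into families since the duplicated copies of this locus are near-identical. Over all TRBV genes 3 of 170 pairs passed, a background of 1.76%. Of the 13 tested for TRBV19, 0 passed and 2 had an unadjusted p under 0.05. TRAV10 came closest, with 20 pairs where 10.7 were expected (log2 odds ratio 1.10 ± 0.37 SE, exact p = 0.00468, adjusted p = 0.133), and was above expectation in all 3 libraries, at 9.09%, 7.56% and 14.3% of TRBV19 pairs against 4.34%, 4.44% and 4.17% of the others. TRAV14 had 8 where 15.9 were expected and was below in all 3 (adjusted exact p = 0.324). TRAV8 had 18 where 11.7 were expected (adjusted exact p = 0.415), but this excess lay in replicate 1, with 14.3% against 3.75%, while replicate 3 had 0 of 28 TRBV19 pairs. Without replicate 1 the TRAV8 pairs were 7 where 8.18 were expected.

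**Figure D3:**
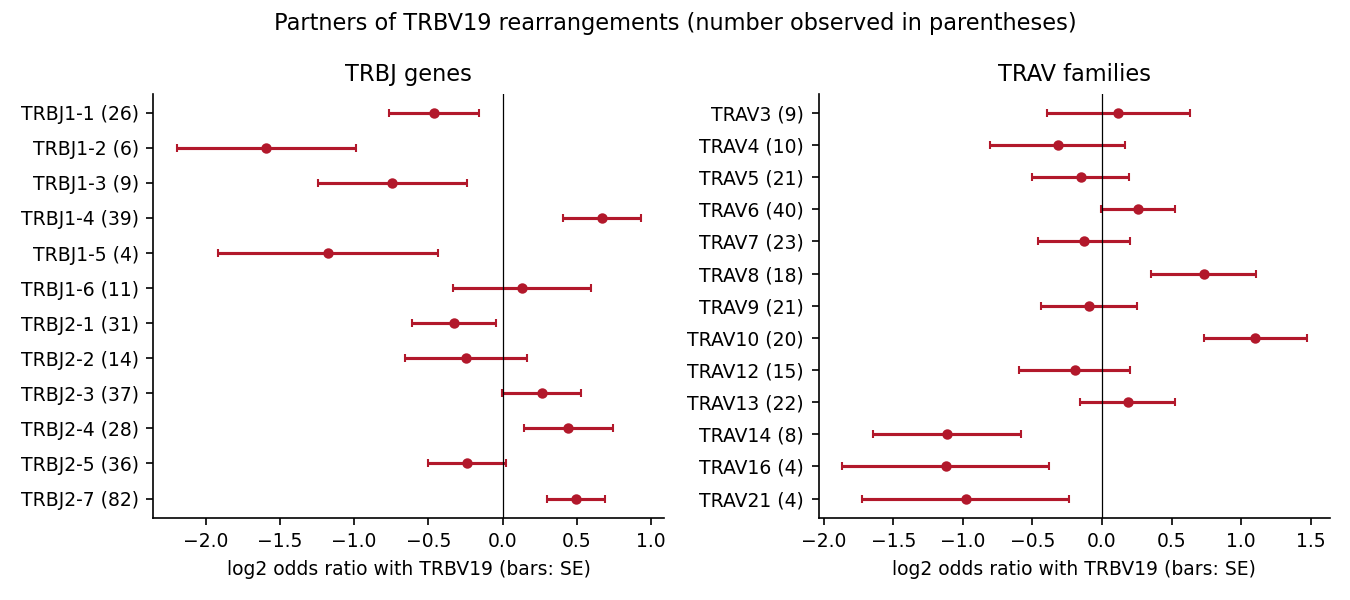
Log2 odds ratio (x axis, bars are standard errors) of each TRBJ gene (left) and TRAV family (right) with TRBV19 against all other TRBV genes, with the number of TRBV19 rearrangements in parentheses. TRBJ1-2 lay lowest at -1.59 and TRAV10 highest among families at 1.10, and no pair passed the adjusted threshold.

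CDR3s of different libraries were then set against each other. Of 30916 possible pairs of TRBV19 rearrangements from different libraries, 82 had equal length and at most 1 amino acid difference, 26.5 per 10000, and 10 of these were identical in amino acids. TRBV19 ranked 2 among the 18 TRBV genes with at least 50 rearrangements, after TRBV10 with 33.0, and before TRBV5 with 15.4. The median of the other genes was 8.09. The pairs differed by 1 to 6 bases with a median of 4. By library, 61 pairs joined replicates 1 and 2 (34.4 per 10000 possible), 9 joined 1 and 3 (18.2) and 12 joined 2 and 3 (14.5). These pairs are a description, since the gene and the measure were picked with the counts known and pairs share rearrangements.

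When TRBV19 CDR3s that differed at 1 position or less were linked, 2 groups had members in all 3 libraries. The same linking gave 10 groups in all 3 libraries over the other TRBV genes, 3 of them in TRBV5. The largest linked group of TRBV5 held 14 rearrangements, so such groups are not particular to TRBV19. The 2 TRBV19 groups were found by this linking and described after their values were seen. The larger held 17 rearrangements of 21 cells, 7 in replicate 1, 9 in replicate 2 and 1 in replicate 3, and 65 of the 82 pairs lay within it. Without it, 17 pairs were left and TRBV19 had 6.11 per 10000. No such group was taken out of the other genes, whose median is given with all their pairs. All 17 joined TRBJ2-7 and had 12 residues, and 15 read CASSIR-X-YEQYF, where X is any residue. No rearrangement of another TRBV gene had this CDR3. Only 2 of the 3549 rearrangements of other genes began with CASSIR, so this 0 was close to fixed by the start. The X was T, G, L, S, A, Q or D in replicate 1, S, G, Q or M in replicate 2 and T in replicate 3. The remaining 2 were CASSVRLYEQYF and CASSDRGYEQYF, both of replicate 2.

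**Figure D4:**
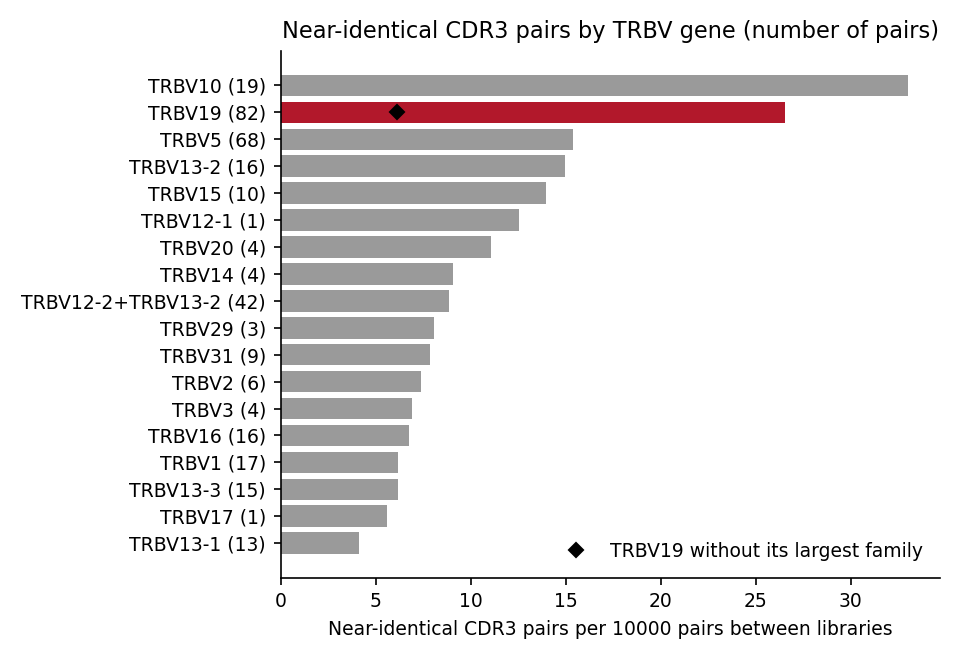
Near-identical CDR3 pairs per 10000 pairs between libraries (x axis) for each TRBV gene with at least 50 rearrangements, with the number of pairs in parentheses. TRBV19 (red) stood at 26.5, second to TRBV10, and the black diamond shows it at 6.11 without its largest recurrent group.

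Members of the larger group are shown because the same residues were spelled by different bases, with the arginine codon matched by D bases in some and wholly or partly untemplated in others.

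Replicate 1, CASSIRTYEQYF: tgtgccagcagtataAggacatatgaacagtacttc
Replicate 3, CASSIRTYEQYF: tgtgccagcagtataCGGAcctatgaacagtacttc
Replicate 1, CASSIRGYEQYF: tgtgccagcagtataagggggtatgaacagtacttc
Replicate 2, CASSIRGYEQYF: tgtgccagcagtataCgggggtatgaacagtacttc
Replicate 1, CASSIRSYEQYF: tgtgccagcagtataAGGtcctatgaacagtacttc
Replicate 2, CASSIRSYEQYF: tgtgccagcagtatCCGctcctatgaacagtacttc
Replicate 1, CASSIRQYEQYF: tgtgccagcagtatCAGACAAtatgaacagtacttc
Replicate 2, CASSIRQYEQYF: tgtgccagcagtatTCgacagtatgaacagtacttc
Replicate 2, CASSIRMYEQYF: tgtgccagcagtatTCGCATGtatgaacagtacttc

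Of the 17 rearrangements, 1 matched germline at every base and the others carried up to 8 bases that did not. They were small, with 1 to 3 cells each. Of the 17, 15 had a median of at least 3 UMIs per cell.

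The α chains were not used to link these TRBs. A TRA was seen for 16 of the 17, and 14 of the 16 had TRAV8D-2 (87.5%, exact interval 61.7% to 98.4%). The TRA counted was the leading one, by cells and then by UMIs. The only cell of replicate 3 held more than 1 TRA, as did those of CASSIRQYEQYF and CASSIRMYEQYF in replicate 2. Among the other TRBV19 rearrangements with a TRA, 6 of 255 had a TRA of the TRAV8 family (2.35%), and among other TRBV genes 153 of 2903 did (5.27%). The other 2 members had TRAV5-4 and TRAV21-DV12, the latter with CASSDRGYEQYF. These α chains used 8 TRAJ genes in all, so the group shared its V gene and not its J gene. Seen from the α side, of the 14 distinct TRBV19 pairs with TRAV8D-2, 13 had a TRB of the form CASS-X-R-X-YEQYF. It was found in 2 of 210 TRBV19 pairs with any other TRAV gene. Among pairs of other TRBV genes with TRAV8D-2 it was found in 0 of 69, which allows up to 5.21% at the upper exact limit. Its share over all pairs of the other TRBV genes is not given here. This form was drawn from the group after it was seen, so the count is not separate from the one above. All of the 13 but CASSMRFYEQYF of replicate 1 belonged to the linked group. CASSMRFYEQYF lay just outside, since it differs from each member at more than 1 position. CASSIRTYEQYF of replicate 1 was counted with a TRA of TRAJ23 and again with one of TRAJ52. By library the 14 pairs were 9, 5 and 0 in replicates 1 to 3. The pair without the form CASS-X-R-X-YEQYF was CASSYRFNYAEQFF of TRBJ2-1, with 3 cells in replicate 2.

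TRAV8D-2 lies at chr14:53042428-53042891, and its germline end codes for CATD, so most of these α CDR3s began with its bases. The exceptions were those with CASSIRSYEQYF of replicate 1 and, joined to TRAJ56, with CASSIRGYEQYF of replicate 2. They spelled CATD with other bases. As residues, the CATD start was found in 13 of the 14 TRBV19 pairs and in 28 of the 69 pairs of other TRBV genes (40.6%). The germline end and 4 of the α CDR3s are shown, since the bases behind the shared start differed except between the last 2.

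TRAV8D-2 3′ end: tgtgctacagatg
Replicate 1, with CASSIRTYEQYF: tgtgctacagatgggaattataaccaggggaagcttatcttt
Replicate 3, with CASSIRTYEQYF: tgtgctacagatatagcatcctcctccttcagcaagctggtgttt
Replicate 2, with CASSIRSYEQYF: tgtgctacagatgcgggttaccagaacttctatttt
Replicate 1, with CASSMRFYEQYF: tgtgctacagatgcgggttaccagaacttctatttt

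The last α CDR3s were identical to the base in replicates 1 and 2, with TRBs that differed on either side of the arginine. Each was seen in 1 cell.

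The second group in all 3 libraries had 4 rearrangements of 14 residues, all of TRBJ1-4, that read CASS-X-GQGDERLFF. X was K in replicate 1 (12 cells), L in replicate 2 (4 cells) and P and I in replicate 3 (1 cell each). No other TRBV gene gave this CDR3. In these junctions 7 to 11 bases matched TRBD1 and 1 to 3 bases matched no segment. Of the 4, 3 had a TRA, and all 3 joined a TRAV10 gene, TRAV10N in replicate 1 and TRAV10D in replicates 2 and 3, to TRAJ23.

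Among all 2582 pairs, 9 had TRAV10 joined to TRAJ23, and 6 of the 9 were with TRBV19 and TRBJ1-4, from all 3 libraries and 31 cells. They were 6 of the 27 TRBV19-TRBJ1-4 pairs (22.2%, 8.62% to 42.3%), against 0 of 197 TRBV19 pairs with another TRBJ gene, which allows up to 1.86% at the upper exact limit, and 1 of 185 pairs of other TRBV genes with TRBJ1-4 (0.541%). This combination was picked after the second group was seen, and the 3 members of that group with a TRA are among the 6. The contrast is therefore a description and not a separate result. All 6 α CDR3s had 13 residues and ended in YNQGKLIF, as did 2 of the 3 pairs with other TRBs. Germline TRAJ23 codes for this end, so it was close to fixed by the choice of TRAJ23. The 6 differed from each other within the 3 residues before that end. The TRBs were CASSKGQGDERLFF and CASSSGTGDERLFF of replicate 1, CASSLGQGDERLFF, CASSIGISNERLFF and a further one of 7 cells in replicate 2, and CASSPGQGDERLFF of replicate 3. The first pair ranked 2 and 3 by cells among the TRBV19 rearrangements of replicate 1. The 6 clones are shown with both chains, because they joined TRBV19 to TRBJ1-4 and TRAV10 to TRAJ23 in different libraries with different CDR3s.

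Replicate 1, 11 cells, TRB: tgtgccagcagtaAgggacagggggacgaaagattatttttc
Replicate 1, 11 cells, TRA: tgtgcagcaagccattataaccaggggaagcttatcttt
Replicate 1, 7 cells, TRB: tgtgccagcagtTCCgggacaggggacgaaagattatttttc
Replicate 1, 7 cells, TRA: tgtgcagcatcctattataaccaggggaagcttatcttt
Replicate 2, 7 cells, TRB: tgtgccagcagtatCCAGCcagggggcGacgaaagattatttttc
Replicate 2, 7 cells, TRA: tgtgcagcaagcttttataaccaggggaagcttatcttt
Replicate 2, 3 cells, TRB: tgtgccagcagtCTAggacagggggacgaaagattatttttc
Replicate 2, 3 cells, TRA: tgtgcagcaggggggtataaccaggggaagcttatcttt
Replicate 2, 2 cells, TRB: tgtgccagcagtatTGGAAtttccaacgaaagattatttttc
Replicate 2, 2 cells, TRA: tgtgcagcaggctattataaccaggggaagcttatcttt
Replicate 3, 1 cell, TRB: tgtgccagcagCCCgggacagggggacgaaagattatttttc
Replicate 3, 1 cell, TRA: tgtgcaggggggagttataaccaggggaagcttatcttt

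**Figure D5:**
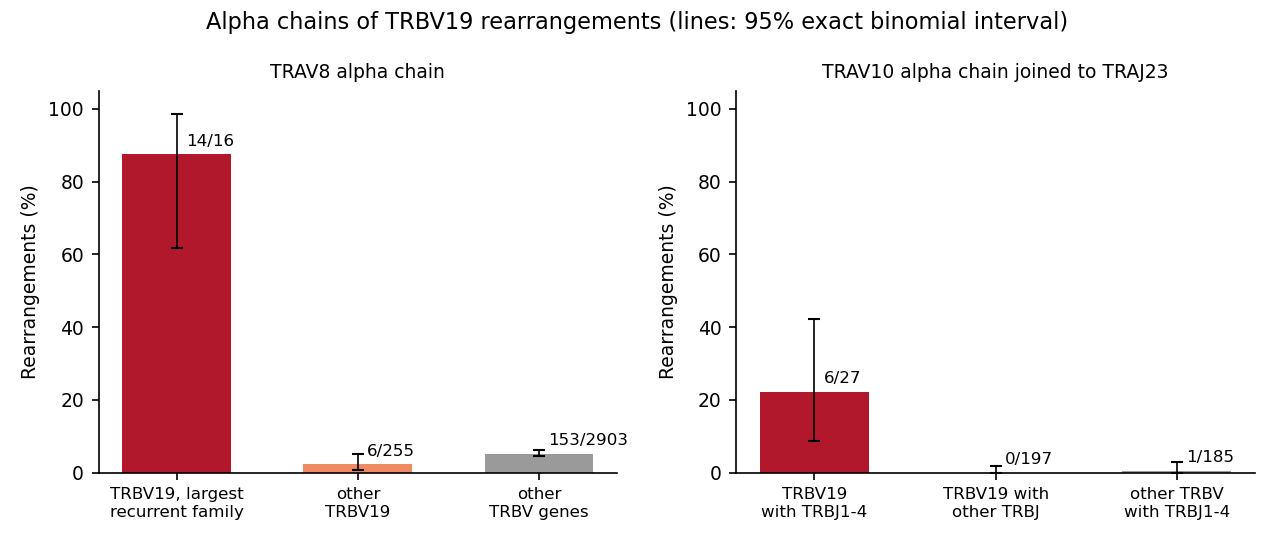
Share of TRBV19 rearrangements (y axis, percent, with counts above the bars and exact 95% intervals as lines) whose leading α chain was of the TRAV8 family (left) and share of distinct pairs with TRAV10 joined to TRAJ23 (right), beside the other TRBV19 rearrangements and other TRBV genes. TRAV8 was found in 14 of 16 members of the larger recurrent group, and TRAV10 with TRAJ23 in 6 of 27 TRBV19-TRBJ1-4 pairs. The right comparison was picked after the second recurrent group was seen and includes its members.

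Across all near-identical TRBV19 pairs with a TRA on both sides, 54 of 68 (79.4%) shared a TRAV family, against 2004 of 21371 (9.38%) of the TRBV19 pairs between libraries that were not near-identical. In the other TRBV genes 69 of 182 near-identical pairs did (37.9%), against 8.89% of the rest. Without the larger recurrent group, TRBV19 had 6 of 11 (54.5%). Pairs share rearrangements and are not independent, so no test was made.

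By amino acids, 7 TRBV19 CDR3s were found in more than 1 library, out of 312 distinct ones. Of these, 4 belonged to the larger recurrent group: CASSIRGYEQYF (5 cells), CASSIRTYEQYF (4), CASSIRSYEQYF (3) and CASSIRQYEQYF (2). The one with the most cells was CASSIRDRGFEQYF of TRBJ2-7, with 3 cells in replicate 1 and 11 in replicate 2. Its leading TRA was of TRAV5-4 in both, joined to TRAJ40 in replicate 1 and to TRAJ48 in replicate 2. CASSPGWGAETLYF of TRBJ2-3 had 3 cells and 1 cell in replicates 1 and 2, and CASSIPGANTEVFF of TRBJ1-1 had 1 cell in each. Both forms of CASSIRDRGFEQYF are shown, since they differ at 1 base, which lies among the untemplated bases.

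Replicate 1, 3 cells: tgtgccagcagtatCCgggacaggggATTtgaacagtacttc
Replicate 2, 11 cells: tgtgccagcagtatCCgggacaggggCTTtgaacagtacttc

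A TRBJ2-4 pair of 15 residues, 1 cell each in replicates 2 and 3, differed at 1 residue and had TRAs of TRAV7D-4 and TRAV7-4 with TRAJ12 and the same α CDR3 residues. It was singled out after its values were seen.

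Replicate 2 TRB: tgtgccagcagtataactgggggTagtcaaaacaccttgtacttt
Replicate 3 TRB: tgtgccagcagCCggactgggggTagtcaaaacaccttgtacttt
Replicate 2 TRA: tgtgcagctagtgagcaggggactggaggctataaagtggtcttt
Replicate 3 TRA: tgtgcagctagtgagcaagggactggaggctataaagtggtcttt

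In length and untemplated bases TRBV19 was close to the other genes. Mean CDR3 length was 13.8, 13.8 and 13.9 residues in replicates 1 to 3. The difference from the other genes was -0.153 ± 0.0898 residues (SD over libraries, n = 3), below 0 in all 3. With 3 libraries no test was made. CDR3s of 12 residues made up 22 of 103 TRBV19 rearrangements in replicate 1 (21.4% against 10.0% of other genes), 26 of 172 in replicate 2 (15.1% against 10.5%) and 3 of 48 in replicate 3 (6.25% against 11.2%). The mean number of bases outside V, D and J germline was 4.28, 4.23 and 4.29, against 4.11, 4.04 and 4.54, and the difference did not keep 1 sign. An arginine between the first 4 and the last 5 residues was found in 42.7%, 33.7% and 33.3% of TRBV19 rearrangements, against 30.3%, 32.4% and 29.7% of the others. The 17 members of the larger recurrent group, 7, 9 and 1 by library, all have 12 residues and such an arginine. They therefore enter both of these contrasts.

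Of stretches of 3 residues between the first 4 and last 5, LGG was the most frequent in TRBV19, in 17 of 323 rearrangements (5.26%) against 4.99% of other genes, then TGG in 14 (4.33% against 5.33%) and DWG in 12 (3.72% against 5.13%). Motifs that begin with the germline isoleucine, such as IAG in 10, were absent or nearly so from other genes. GGR, in 11 (3.41% against 2.34%), and RLG, in 10 (3.10% against 1.44%), were above the other genes. These motifs were listed after their counts were seen and no test was made.

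Invariant α chains were few. TRAV1 joined to TRAJ33, the chain of MAIT cells, was found in 2 of 597 paired TRBV19 cells (0.335%, exact interval 0.0406% to 1.20%), 1 each in replicates 1 and 2, and in 12 of 3590 paired cells of the other TRBV genes (0.334%). Of the 597 cells, 250 were the largest clone of replicate 1, and without it, a setting chosen after seeing the data, the share was 2 of 347 (0.576%, 0.0699% to 2.07%). TRAV11 joined to TRAJ18, the chain of invariant natural killer T cells, was found in 0 of 597, with an upper exact limit of 0.616%, or 1.06% without that clone, and in 5 of 3590 of the others (0.139%).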

How the data were processed

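The data were 10X Genomics V(D)J libraries of CD45+ sciatic nerve cells, grouped by the labels as 1 condition with 3 libraries. The authors called cells and assembled contigs with Cell Ranger on mm10 (version not given in the sources used here) and deposited, for each contig, the counts of UMIs and reads, V and J genes, CDR3 and length. They also deposited the count of cells of every clonotype, with the fraction of cells that it makes up. Cells numbered 2374, 3555 and 705, with 34630, 41338 and 5142 UMIs. Consensus files and gene expression were not used here.

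From barcodes called as cells, productive contigs of both chains were used with the deposited V names. No doublet caller was run. Cells with more than 1 TRB were kept. Such cells held 14.3%, 8.94% and 7.69% of the TRBV19 TRBs outside the largest clone in replicates 1 to 3 and 11.2%, 12.5% and 2.73% of the TRBs of other genes, and cells with exactly 1 TRB were an alternative. The table of replicate 1 holds no framework, CDR1 or CDR2 bases. Junctions were matched to GRCm38 with GENCODE M21, requiring 6 matching bases of V and of J and at least 5 of D. V genes with no functional entry of the same name there were left out, and 3327 of 3872 rearrangements were matched, all 323 of TRBV19 among them. Pairs were tested as described, on tables of 193 and 170 pairs, and the test was checked on simulated data. A p compares rearrangements in these libraries, not mice. TRAV genes with D and N in their names have near-identical copies, so which copy Cell Ranger named is uncertain.

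Named were the 3 partners of lowest p in each kind of test, the 3 largest rearrangements of each library, every CDR3 in more than 1 library, the 3 genes of most alike TRBJ use and the neighbours in the order of shares. The gene, the lists and the tests were chosen with earlier results of these data known. Alternatives were a minimum of 3 UMIs, amino acid rearrangements, cells with exactly 1 TRB, other limits on expected numbers and D matches, and fits without 1 library. The software was Python 3.11.15, with scipy 1.17.1, numpy 2.4.6, matplotlib 3.10.9 and pandas 2.3.3.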

Additional observations from a re-analysis of the deposited data

Results flagged for a closer look

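TRBV19 TRBs were also found on barcodes that were not called cells, which no comparison used. There were 2610 productive TRBV19 contigs on such barcodes in replicate 1, or 37.5% of their TRBs, 111 in replicate 2 (7.86%) and 34 in replicate 3 (6.27%). In replicate 1, 2256 of the 2610 were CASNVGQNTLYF, at a median of 1 UMI against 9 in cells. Without it the TRBV19 share of that library was 7.53% outside cells and 7.34% in cells. The part of free RNA in the cell counts of that clone was not tested.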

How the results depend on the processing

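For the 8 summary results, 53 alternative values were computed, and 42 of them kept their direction and moved by less than the spread between libraries (1 SD) or, for counts, by less than 1.5 times. That spread is wide for the share of cells, which ran from 8.36% without the largest rearrangements to 16.5% without replicate 2, against 14.2%. The mean share of TRBV19 among rearrangements was 7.68% over rearrangements of more than 1 cell, against 8.44%. The CDR3 length difference was -0.501 residues with each cell counted once, against -0.153. The difference in non-germline bases, 0.0342, was -0.0853 with a D match of at least 6 bases and between -0.0399 and 0.178 when 1 library was left out, so it has no settled sign. TRBV19 had 1 TRBJ pair past the threshold, TRBJ1-2, in cells with exactly 1 TRB and 0 under the other settings, and over all settings its adjusted exact p ran from 0.0498 to 0.669, the latter without replicate 2. The observed over expected ratio of TRAV8, 1.53, was 0.59 without the larger recurrent group, an alternative chosen after seeing the data, and between 0.855 and 2.03 when 1 library was left out. Near-identical pairs numbered 82, against 10 with no amino acid difference, 17 without that group and 9 to 61 when 1 library was left out, with 9 left without replicate 2 and 12 without replicate 1. The largest clone had 250 cells when a TRA was required, against 365. The causes of these changes were not tested, and alternatives that drop rearrangements or cells leave smaller numbers.

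The smallest library, replicate 3, had 48 TRBV19 rearrangements, so counts of 0 there limit little. All libraries are of 1 condition and come from 3 captures, and differences between them cannot be told apart from differences between mice. CD4+ and CD8+ cells were not separated.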
